A study of Arabidopsis thaliana with 18 samples.

Results

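The genes described here are 10 Arabidopsis thaliana genes of red-light perception: the photoreceptor genes PHYA and PHYB, the phytochrome-interacting factor genes PIF1, PIF3, PIF4, PIF5, PIF6 and PIF7, and their relatives PIL1 and HFR1. They were chosen by identifier, and all 10 were found among the 33557 genes of the deposited table. RNA came from seedlings, 14 days old, kept for 4 h at 4 °C after growth on plates of salt medium with 2% sucrose. Wild-type Col-0 (WT) was set against the mutant stch4-1, which the labels also place in the col-0 cultivar, with 3 libraries of each genotype, named a, b and c here by their place in the table. The mutated gene, STCH4 or REIL2, encodes a protein with zinc fingers that helps the large subunit of the ribosome to mature. The labels do not give the kind of lesion in stch4-1, the light regime or the hour of sampling. Further samples, taken at 0 h and at 24 h, are not analysed here, so no cold response can be read from these values, only the difference between genotypes in the cold.

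Phytochromes switch between an inactive form and a form activated by red light. The active form enters the nucleus, binds PIF proteins and promotes their phosphorylation and degradation, which releases seedlings from the growth programme of darkness or shade. PIFs are basic helix-loop-helix (bHLH) transcription factors that bind the G-box and the related PBE-box in the promoters of growth, pigment and light-response genes. In Arabidopsis, PIF3, PIF4 and PIF7 are also known to bind promoters of the CBF genes, which encode the main transcription factors of cold acclimation, and to hold back their expression.

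Because these factors act through the G-box, the 250 bases before the annotated start of each of the 10 genes were searched for it (CACGTG, the same on both strands) and for the PBE-box (CACATG, or CATGTG on the other strand). The G-box stood in 2 of 10 windows, those of PHYB and PIF5, against 6.57% of 26686 windows of protein-coding genes. The PBE-box stood in 0 of 10, against 11.2% of all windows. The PHYB window (chr2:8139506-8139755, + strand) held a pair of G-boxes, with first bases 146 and 111 bases before the start. The PIF5 window (chr3:21830838-21831087, - strand) held 1, with its first base 165 bases before the start. Those windows are shown with the windows of PIF3 (chr1:3075518-3075767, + strand) and PIF7 (chr5:24640766-24641015, - strand), the 2 genes that differed most between genotypes. All are RefSeq sequences of assembly TAIR10.1, read 5′ to 3′ on the strand of the gene, with each G-box in capitals.
PHYB: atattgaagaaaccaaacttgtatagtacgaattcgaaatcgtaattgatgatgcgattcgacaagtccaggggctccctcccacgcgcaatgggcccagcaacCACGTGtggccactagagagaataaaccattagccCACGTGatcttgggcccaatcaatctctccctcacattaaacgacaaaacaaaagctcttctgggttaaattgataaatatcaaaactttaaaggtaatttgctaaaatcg
PIF5: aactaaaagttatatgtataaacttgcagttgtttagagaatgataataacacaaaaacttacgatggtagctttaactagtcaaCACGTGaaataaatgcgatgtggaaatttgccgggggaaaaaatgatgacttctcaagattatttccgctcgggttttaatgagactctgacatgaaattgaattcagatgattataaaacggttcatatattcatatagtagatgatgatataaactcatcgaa
PIF3: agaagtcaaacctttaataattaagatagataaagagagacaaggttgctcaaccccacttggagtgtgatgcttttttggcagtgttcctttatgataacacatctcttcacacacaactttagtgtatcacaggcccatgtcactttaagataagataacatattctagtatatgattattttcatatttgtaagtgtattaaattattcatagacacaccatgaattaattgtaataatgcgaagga
PIF7: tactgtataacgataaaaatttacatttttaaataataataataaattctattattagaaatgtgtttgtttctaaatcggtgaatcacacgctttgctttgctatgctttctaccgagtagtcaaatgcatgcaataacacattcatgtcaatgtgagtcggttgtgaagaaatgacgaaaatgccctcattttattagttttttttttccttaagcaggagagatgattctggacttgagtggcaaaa
A match describes the letters only, and a window without a match says nothing of binding elsewhere.

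Of the 10 genes, 2 had more transcript in stch4-1 (PIF3 and PIF5), 2 had less (PIF7 and PHYB), and 6 did not pass the test (PIF1, PIF4, PIF6, PIL1, HFR1 and PHYA). Levels are given as FPKM values, in which fragment numbers are corrected for the length of the transcript and the size of the library. Differences are log2 fold changes of FPKM + 1, tested with limma and called at a Benjamini-Hochberg adjusted p under 0.05 over 19289 genes. All 10 passed the filter of 1 FPKM or more in at least 3 of 6 libraries. Among all genes tested, 32.6% were called, 18.5% higher and 14% lower, so 4 of 10 is a share close to the background. Under quantile normalization the calls among all genes were 2614 higher and 3108 lower, against 3576 and 2704 here. The median log2 fold change was 0.03 over the 10 genes and 0.01 over all genes tested. The values of the genotypes did not overlap in 6 of the 10 (PIF1, PIF3, PIF5, PIF6, PIF7 and PHYB), against 47.8% of all genes tested.

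**Figure D1:**
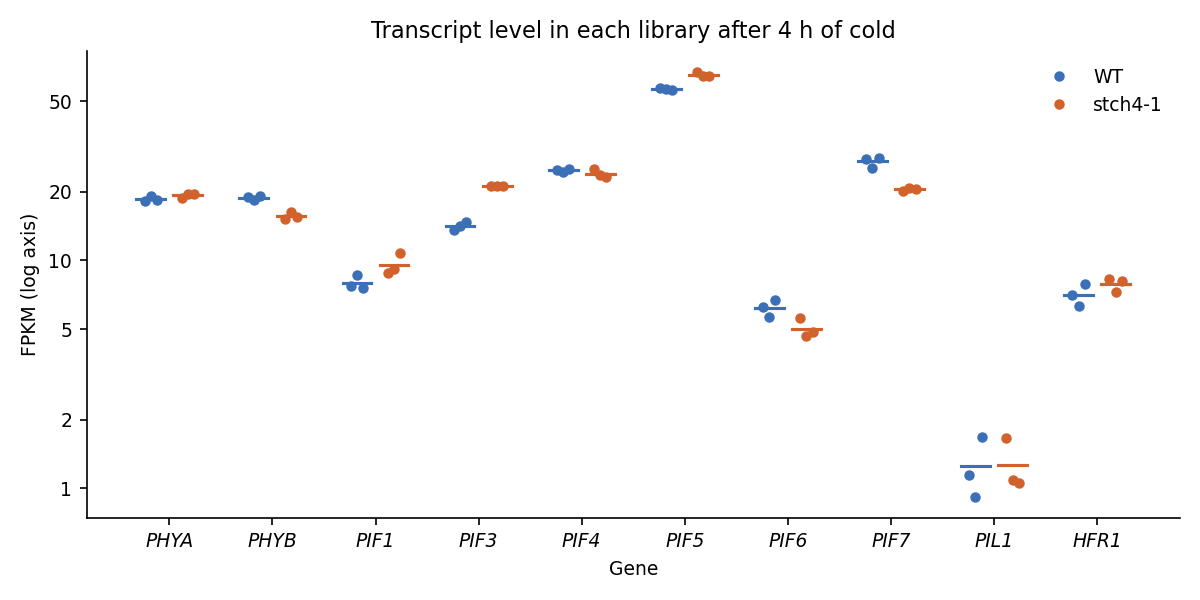
FPKM of the 10 genes (log axis) in each of 3 WT and 3 stch4-1 libraries, with 1 point per library and a line at the mean. PIF3 and PIF5 sit higher in stch4-1 and PIF7 and PHYB lower, while PIF4 and PIL1 mix.

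Summed FPKM was 878394 to 919309 in the WT libraries and 947218 to 987059 in those of stch4-1, without overlap. FPKM holds no total count, but steps in the lowest values put relative depth between 1 and 1.44, with the shallowest and the deepest library both WT. REIL2 (AT2G24500), the mutated gene, read 31.2, 34.1 and 36.0 FPKM in WT and 5.65, 5.44 and 5.80 in stch4-1. Seedlings are a mixture of organs. Of 12 root markers, 11 were tested, with 5 lower in stch4-1 and 0 higher, and their summed FPKM was 202 to 212 in WT and 162 to 168 in stch4-1, with none at 0 in all libraries. The lowest was PRP3, a wall protein of root hairs (log2 fold change -0.70, from 54.1 to 33.1 FPKM). The others called lower were MRN1 (-0.69) and THAS (-0.34) of triterpene synthesis, CASP1 (-0.30) and SCR (-0.29). The CASP1 call was lost in 6 of 13 alternative settings (limma adjusted p from 0.0504 to 0.0920). The 6 not called were RHD6 (0.23), MYB36 (0.08), EXPA7 (0.03), SHR (0.01), COBL9 (-0.11) and RSL4 (-0.15). PLT2 missed the filter, at means of 0.668 FPKM in WT and 0.936 in stch4-1. Of 6 stomatal markers 2 were higher, FAMA (0.30) and TMM (0.29), and 0 lower. Those not called were SPCH (-0.43), MUTE (0.25), EPF1 (0.74) and EPF2 (0.12). Sums over the 6 were 22.9 to 30.3 FPKM in WT and 29.6 to 39.2 in stch4-1. Over all genes tested 18.5% were called higher and 14% lower. The FAMA call was lost without WT a, WT c, stch4-1 b or stch4-1 c (limma adjusted p from 0.0696 to 0.0743), and that of TMM without any 1 library but WT b (limma adjusted p from 0.0525 to 0.118) or with no filter (0.0703). Fewer cells of a type and less RNA per cell cannot be told apart in such samples, and the part of root share in the values below was not tested.

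Phytochrome B is the main phytochrome of light-grown plants and also a temperature sensor, since its active form reverts faster in warmth. PHYB (AT2G18790, chromosome 2) read 18.9, 18.4 and 19.2 FPKM in WT and 15.2, 16.3 and 15.6 in stch4-1. All stch4-1 libraries lay below all WT libraries. The mean fell by 16.7%, from 18.8 ± 0.425 to 15.7 ± 0.581 FPKM (SD, n = 3). The log2 fold change was -0.25 ± 0.049 (SE, limma adjusted p = 0.00662). Phytochrome A, which is degraded in light, serves in far-red light and in the first exposure of dark-grown seedlings. PHYA (AT1G09570, chromosome 1) read 18.3, 19.1 and 18.4 FPKM in WT and 18.8, 19.5 and 19.6 in stch4-1, and the groups overlapped. Its log2 fold change of 0.05 had a 95% interval from -0.06 to 0.15 (limma adjusted p = 0.439).

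The PHYB and PHYA transcripts were about equal in WT and unequal in the mutant. Within libraries, PHYB stood at 1.03, 0.961 and 1.04 times the level of PHYA in WT and at 0.808, 0.836 and 0.794 times in stch4-1. Such a ratio does not depend on how libraries are scaled, and it shows unequal change, not which gene changed.

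Both phytochrome differences changed when a trend with transcript length was removed. Across genes, the log2 fold change fell with exon length, from a median of 0.18 in the shortest of 10 bins to -0.15 in the longest. PHYA and PHYB, at 5111 and 4528 bases of exon, belong to that longest bin (3193 to 16614 bases), where 37.4% of genes were called lower and 3.81% higher. With the length trend removed, PHYB stood at -0.07 and was no longer called (limma adjusted p = 0.297), and PHYA stood at 0.25 and was called higher (limma adjusted p = 0.0051). Set against other genes of their length, PHYB lay close to them and PHYA above them.

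**Figure D2:**
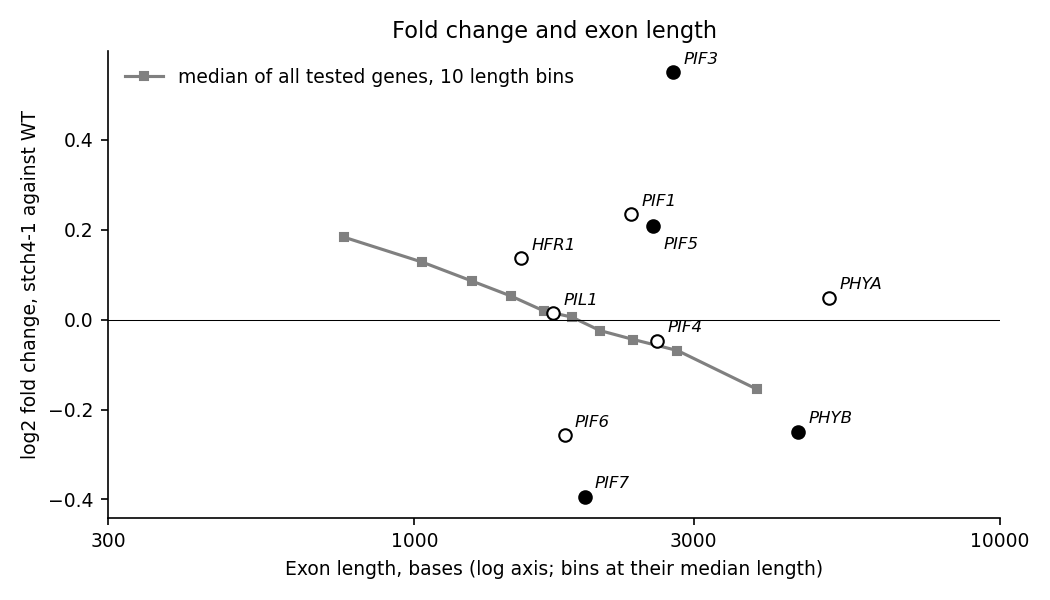
Log2 fold change of each of the 10 genes against exon length in bases (log axis), filled where called and open where not, with grey squares for the median of all tested genes in 10 length bins. The bins fall from 0.18 to -0.15, with PIF3 and PHYA among the genes above the bin medians and PIF7 and PIF6 below them.

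PIF3, the first phytochrome-interacting factor found, represses light responses in dark-grown seedlings and is one of the repressors of CBF genes. PIF3 (AT1G09530, chromosome 1) read 13.6, 14.2 and 14.7 FPKM in WT and 21.186, 21.192 and 21.190 in stch4-1. The mutant libraries were all above the WT libraries, and they were nearly equal to each other. The mean was 49.7% higher, 21.2 ± 0.00311 against 14.2 ± 0.556 FPKM (SD, n = 3). Its log2 fold change of 0.55 ± 0.048 (SE, limma adjusted p = 0.000196) was the largest of the 10, and 4.97% of all tested genes had a larger one in absolute size. It lay between 0.52 and 0.62 under all 13 alternative settings, and PIF3 was called under each of them.

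PIF7 acts mainly in shade, where it drives auxin synthesis, and it too is a known repressor of CBF genes. PIF7 (AT5G61270, chromosome 5) read 28.0, 25.5 and 28.3 FPKM in WT and 20.1, 20.7 and 20.6 in stch4-1. All mutant libraries lay below the lowest WT library. The mean fell by 24.8%, from 27.3 ± 1.56 to 20.5 ± 0.296 FPKM (SD, n = 3), with a log2 fold change of -0.39 ± 0.052 (SE, limma adjusted p = 0.00113). It kept its call under all 13 alternatives, with values from -0.44 to -0.37. On the opposite strand AT5G61260 shares 318 bases of exon with PIF7, at a mean of 1.33 FPKM in WT and 0.844 in stch4-1. The strand setting of the counting is not given in the sources used here.

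PIF3 and PIF7, both repressors of CBF genes, thus moved in opposite directions. PIF4, also named above as such a repressor, was not called (log2 fold change -0.05, limma adjusted p = 0.478). The PIF3 level was 0.485, 0.558 and 0.519 times that of PIF7 in WT and 1.05, 1.02 and 1.03 times in stch4-1. In the same libraries CBF1, CBF2 and CBF3 were all called higher in stch4-1 (log2 fold changes of 0.35, 0.38 and 0.32), against 18.5% of all genes tested. These CBF genes have 1217, 986 and 1391 bases of exon, and 22.5% to 31.4% of genes in their length bins were called higher. With the length trend removed all 3 stayed called. CBF3 was not called under quantile normalization (limma adjusted p = 0.0854) or without WT a, WT c or stch4-1 a (limma adjusted p from 0.0520 to 0.0692).

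**Figure D3:**
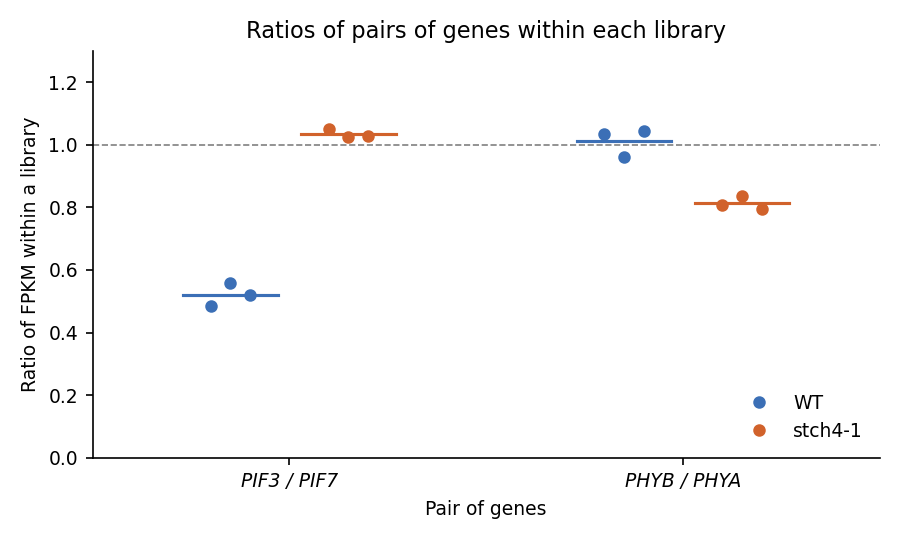
Ratio of FPKM between 2 genes within each library, for PIF3 over PIF7 and PHYB over PHYA, with 1 point per library, a line at the mean and a dashed line at 1. PIF3 over PIF7 is 0.485 to 0.558 in WT and 1.02 to 1.05 in stch4-1, and PHYB over PHYA is 0.961 to 1.04 and 0.794 to 0.836.

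PIF4 and PIF5 are close relatives that promote elongation in warmth, in shade and toward the end of the night, and PIF5 was the most abundant transcript of the 10. PIF5 (AT3G59060, listed as PIL6 in RefSeq, chromosome 3) read 57.0, 56.5 and 55.9 FPKM in WT and 67.1, 64.7 and 64.3 in stch4-1, with no overlap. The mean was 15.7% higher, 65.4 ± 1.54 against 56.5 ± 0.544 FPKM (SD, n = 3), with a log2 fold change of 0.21 ± 0.035 (SE, limma adjusted p = 0.00346). Under quantile normalization it was 0.12 and stayed just within the threshold (limma adjusted p = 0.0479). PIF4 (AT2G43010, chromosome 2), the main transcription factor of growth in warmth, read 24.9, 24.5 and 25.1 FPKM in WT and 25.3, 23.7 and 23.2 in stch4-1. The groups overlapped, and the log2 fold change of -0.05 had a 95% interval from -0.16 to 0.06 (limma adjusted p = 0.478). With the length trend removed the PIF4 value was 0.0087, of the other sign.

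PIF5 and PHYB, the 2 genes with a G-box in the window shown above, went in opposite directions, PIF5 higher and PHYB lower. With the length trend removed PIF5 stayed called, at 0.26 (limma adjusted p = 0.00138). PHYB was not called there, at -0.07 (limma adjusted p = 0.297).

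PIF1 and PIF6 were at lower levels and did not pass the test, although their groups did not overlap. PIF1 (AT2G20180, listed as PIL5 in RefSeq, chromosome 2), which blocks seed germination in the dark and restrains chlorophyll synthesis, read 7.74, 8.61 and 7.54 FPKM in WT and 8.77, 9.16 and 10.8 in stch4-1. Its log2 fold change was 0.23, with a 95% interval from 0.03 to 0.44 (limma adjusted p = 0.0732), and 0.28 with the length trend removed, where it was called (limma adjusted p = 0.0474). PIF6 (AT3G62090, listed as PIL2 in RefSeq, chromosome 3), linked to seed dormancy, read 6.23, 5.66 and 6.70 FPKM in WT and 5.56, 4.66 and 4.86 in stch4-1. Its log2 fold change was -0.26, with a 95% interval from -0.46 to -0.05 (limma adjusted p = 0.0582). PIF6 was called lower without WT b (limma adjusted p = 0.0497) or without stch4-1 a (limma adjusted p = 0.0469). On the opposite strand an annotated antisense RNA, AT3G09745, shares 1525 bases of exon with PIF6, and AT3G62080 shares 231. Without strand, reads within those shared bases cannot be assigned to a gene. AT3G62080 was at a mean of 5.05 FPKM in WT and 4.24 in stch4-1, and AT3G09745 has no values here. PIF1 shares 134 bases with AT2G20170, which is listed at 0 in every library.

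HFR1 and PIL1 are genes that PIFs induce in shade, and the HFR1 protein binds PIFs in dimers that cannot bind DNA. HFR1 (AT1G02340, chromosome 1) read 7.05, 6.34 and 7.86 FPKM in WT and 8.29, 7.25 and 8.09 in stch4-1, with overlap. Its log2 fold change of 0.14 had a 95% interval from -0.07 to 0.34 (limma adjusted p = 0.265), and it was 0.07 without WT b and 0.20 without WT c. PIL1 (AT2G46970, chromosome 2) was near the filter, at 1.15, 0.920 and 1.69 FPKM in WT and 1.66, 1.09 and 1.06 in stch4-1. The WT libraries held both the lowest and the highest value, and the stch4-1 values lay between them. Its log2 fold change of 0.01 had a 95% interval from -0.36 to 0.39 (limma adjusted p = 0.956), so a difference of that size in either direction was not detectable.

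**Figure D4:**
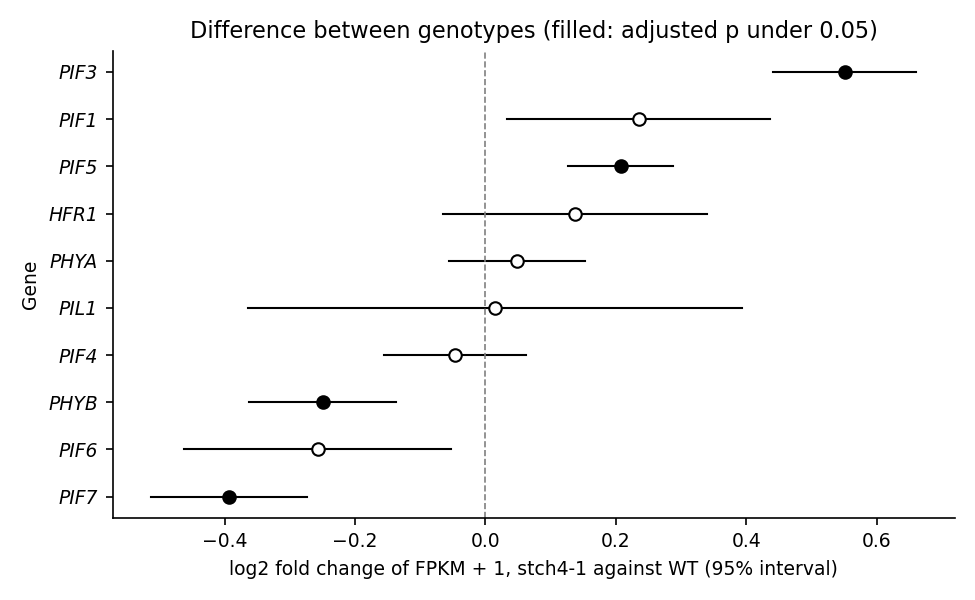
Log2 fold change of FPKM + 1, stch4-1 against WT, for each of the 10 genes with its 95% interval from limma, filled where the adjusted p is under 0.05. PIF3 (0.55) and PIF5 (0.21) lie above 0, PIF7 (-0.39) and PHYB (-0.25) below it, and the widest interval is that of PIL1.

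The order of the 10 levels differed between genotypes in its middle. In WT it ran from PIF5 (mean 56.5 FPKM) through PIF7 (27.3), PIF4 (24.9), PHYB (18.8), PHYA (18.6), PIF3 (14.2), PIF1 (7.96), HFR1 (7.08) and PIF6 (6.20) to PIL1 (1.25). The ranges of PHYB and PHYA overlapped there, as did those of PIF1 and HFR1 and those of HFR1 and PIF6. In stch4-1 PIF5 came first (65.4 FPKM), followed by PIF4 (24.0), PIF3 (21.2), PIF7 (20.5), PHYA (19.3), PHYB (15.7), PIF1 (9.57), HFR1 (7.87), PIF6 (5.03) and PIL1 (1.27). No neighbours in that order had overlapping ranges over the 3 libraries.

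The 6 PIF genes among the 10 together gave 137 ± 1.76 FPKM in WT and 146 ± 2.13 in stch4-1 (SD, n = 3). A further PIF outside the 10, PIF8 (AT4G00050, listed as UNE10 in RefSeq), does not enter that sum. It was at 17.7 ± 2.01 FPKM in WT and 20.3 ± 1.71 in stch4-1. PIF5 held 41.3% ± 0.721 of the sum of the 6 in WT and 44.9% ± 0.481 in stch4-1. The share of PIF7 was 19.9% ± 0.891 and 14.1% ± 0.406, and that of PIF3 was 10.3% ± 0.407 and 14.5% ± 0.213. These sums are in units per transcript length, so they compare transcripts, not protein.

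The genes with values most like those of PIF3 over the 6 libraries, by root mean square distance of centred log2(FPKM + 1) among 19288 other genes, were AT1G14980 (CPN10, a chaperonin), AT1G21670 and AT2G23810 (TET8, a tetraspanin). Their distances were 0.0229, 0.0241 and 0.0253. CPN10 read 140, 147 and 147 FPKM in WT and 210, 211 and 204 in stch4-1. The 6 libraries fall in 2 groups, so genes with a similar genotype difference lie close by construction.

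Other genes of the pathway were taken as lists by identifier. PHYC, PHYD and PHYE, the remaining phytochromes, and UNE10, which is PIF8, had 0 of 4 called, against 32.6% of all genes tested. PHYE, at 13.6 ± 0.585 FPKM in WT and 12.4 ± 0.101 in stch4-1 (SD, n = 3), was the 1 gene of these with an unadjusted limma p under 0.05 (0.0418, adjusted p = 0.0995), at a log2 fold change of -0.13. PHYC, PHYD and PHYE, at 3802, 4204 and 3912 bases of exon, lie in the longest bin. In that bin 37.4% of genes were called lower and 3.81% higher. With the length trend removed PHYC was called higher, at 0.24 (limma adjusted p = 0.0403). Genes that serve phytochromes had 3 of 9 lower and 0 higher, against 14% and 18.5% over all genes tested, with a median of -0.09. One was HMR, a nuclear and plastid protein needed for phytochrome signalling, which fell from 21.9 ± 0.972 to 17.5 ± 0.681 FPKM (log2 fold change -0.30, limma adjusted p = 0.00388). The other lower ones were AT4G34550, which fell from 23.9 ± 2.36 to 13.5 ± 0.311 FPKM (log2 fold change -0.78, limma adjusted p = 0.000257), and AT2G16365, from 104 ± 2.84 to 82.1 ± 3.32 FPKM (-0.33, limma adjusted p = 0.000956). RefSeq describes both only as F-box proteins. They were listed here as PCHL (AT4G34550) and PCH1 (AT2G16365), whose proteins stabilise active phyB. AT2G16365, at 3711 bases of exon, lies in the longest bin too. The 3 lower calls of this list were kept with the length trend removed. HY1 and HY2, which make the chromophore, and FHY1 and FHL, which carry phyA into the nucleus, were not called, with log2 fold changes from -0.09 to 0.07.

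Genes of protein turnover and of the COP1 branch had 6 of 18 lower and 1 higher, with a median of -0.09. Over all genes tested 14% were lower and 18.5% higher. DET1, a repressor of photomorphogenesis, fell from 31.6 ± 0.926 to 26.5 ± 1.74 FPKM (log2 fold change -0.25, limma adjusted p = 0.0122). SPA1, a partner of the ubiquitin ligase COP1, was at -0.19 (limma adjusted p = 0.0105), but at -0.03 with the length trend removed (limma adjusted p = 0.604). COP1 itself was at -0.09 (limma adjusted p = 0.318). RefSeq describes the other 4 lower ones as protein kinases, AT3G03940 (-0.30), AT2G25760 (-0.20), AT5G18190 (-0.15) and AT3G13670 (-0.15). The higher one was LRB1, a ubiquitin ligase adaptor for PIF3 and phyB, at 16.3 ± 0.819 in WT and 18.7 ± 0.841 FPKM in stch4-1 (limma adjusted p = 0.0324). Calls of AT5G18190 and AT3G13670 were each lost under 7 of 13 alternatives, among them each WT library left out and stch4-1 a left out. AT2G25760 was not called without WT c or stch4-1 b (limma adjusted p of 0.0746 and 0.0696). With the length trend removed AT2G25760, AT5G18190 and AT3G13670 stood at -0.09, -0.03 and -0.09, with none called (limma adjusted p of 0.224, 0.708 and 0.198). The LRB1 call was lost without WT a, WT b, stch4-1 b or stch4-1 c (limma adjusted p from 0.0703 to 0.101). With the length trend removed 3 of 18 were lower and 3 higher, and 3 were lower without WT c. SPA1, AT5G18190 and AT2G25760, at 4128, 3619 and 3316 bases of exon, lie in the longest bin, where 37.4% of genes were called lower. EBF1 and EBF2, F-box proteins that target PIF3 for degradation, were at 0.08 and 0.10 and not called (limma adjusted p of 0.186 and 0.221), but EBF1 was called higher, at 0.17, with the length trend removed (limma adjusted p = 0.0233).

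Genes of small proteins in the same helix-loop-helix class as HFR1 had 1 of 4 tested higher and 0 lower, against 18.5% and 14% over all genes. It was PAR2, at 27.1 ± 2.76 FPKM in WT and 32.8 ± 2.46 in stch4-1 (log2 fold change 0.27, limma adjusted p = 0.0373). The call was lost in 9 of 13 alternatives, including each library left out except WT a (limma adjusted p from 0.0546 to 0.210 over the 9). PAR1 (-0.18), KDR (0.07) and HEC1 (0.22) were not called, and HEC2 was listed at 0 in all libraries. All but KDR, whose protein binds HFR1, were listed as inhibitors of PIFs.

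Genes that PIFs induce in shade or warmth had 5 of 15 tested higher and 0 lower, with a median of 0.22, against 18.5% and 14% and a median of 0.01 over all genes. ST2A, a sulfotransferase, rose from 6.09 ± 0.607 to 9.80 ± 0.165 FPKM (log2 fold change 0.61, limma adjusted p = 0.000893). ATHB2, a homeodomain factor of shade avoidance, rose from 28.7 ± 1.06 to 34.5 ± 1.36 FPKM (0.26, limma adjusted p = 0.00521). AT1G69570, of the Dof zinc-finger family, went from 8.75 ± 1.04 to 11.2 ± 0.489 FPKM (0.33, limma adjusted p = 0.0209). The remaining 2 were HAT2 and IAA19, at 0.22 each, and the IAA19 call was lost on leaving out either WT b or WT c, or stch4-1 a or c (limma adjusted p from 0.0545 to 0.0615). With the length trend removed IAA19 stood at 0.09 and was not called (limma adjusted p = 0.278), and 4 of 15 were higher and 0 lower. ATHB2, HAT2 and IAA19 have 1333, 1423 and 1010 bases of exon. In the length bins of these genes 22.5% to 31.4% of genes were called higher, and 16.0% in the bin of ST2A and AT1G69570. Of the 10 not called, PKS4 (0.43), ATHB4 (0.38) and YUC2 (0.27) had the highest values, without overlap between genotypes. ATHB4 was called higher with no filter, quantile normalization or eBayes without a trend (limma adjusted p from 0.0323 to 0.0490). YUC2 was called higher in the last of these (limma adjusted p = 0.0488). In HAT1 (0.03), HAT3 (0.03), TAA1 (-0.03), XTH15 (-0.10) and CKX5 (-0.14) the groups overlapped. The auxin synthesis genes YUC8 and YUC9, further known PIF targets, were not called, at -0.19 and -0.21, also without overlap. With eBayes run without a trend both were called lower (limma adjusted p of 0.0214 and 0.0476), and the list had 7 higher and 2 lower. The higher count was 3 without WT b, stch4-1 a or stch4-1 c. Calls of AT1G69570 were lost without WT a as well as without those 3 libraries (limma adjusted p from 0.0525 to 0.0647).

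Greening genes that PIFs repress in the dark had 4 of 9 higher and 1 lower, against 18.5% and 14% over all genes tested. Their median was 0.10. HEMA1, which starts tetrapyrrole synthesis, went from 409 ± 2.63 to 499 ± 5.64 FPKM (log2 fold change 0.28, limma adjusted p = 0.000472). The GATA factors GNC and GNL were at 0.25 each, and PSY, the entry enzyme of carotenoid synthesis, at 0.18. GUN5, a subunit of magnesium chelatase, was the lower one, at 532 ± 12.6 in WT and 485 ± 5.04 FPKM in stch4-1 (-0.13, limma adjusted p = 0.0188). The 4 not called were CAO (0.10), GLK1 (0.08), CRD1 (-0.0039) and GUN4 (-0.19). This list had 2 higher and 3 lower with quantile normalization. There neither HEMA1, at 0.07 (limma adjusted p = 0.200), nor PSY, at 0.03 (limma adjusted p = 0.637), was called. GUN4, at -0.37 (limma adjusted p = 0.00526), and CRD1, at -0.20 (limma adjusted p = 0.0139), were called lower there. GUN4 was also called lower with the length trend removed or without WT a. CAO was called higher with that trend removed or without stch4-1 c. The GUN5 call was lost with eBayes run without a trend (limma adjusted p = 0.0599) and without WT c, stch4-1 a or stch4-1 b (limma adjusted p from 0.0624 to 0.0784), and with the length trend removed its value turned to 0.05. GNL was not called without WT c or stch4-1 b (limma adjusted p of 0.0654 and 0.0666).

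**Figure D5:**
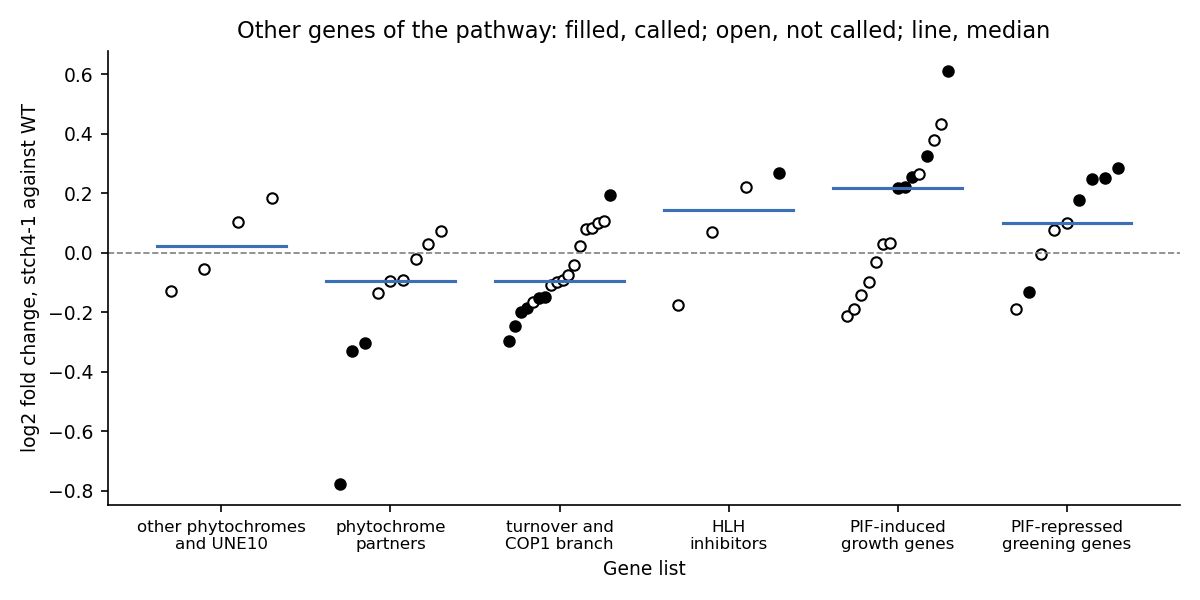
Log2 fold change of the tested genes of 6 pathway lists, stch4-1 against WT, with 1 point per gene, filled where called, and a line at the median of the list. Medians run from -0.09 in phytochrome partners and in turnover genes to 0.22 in PIF-induced growth genes.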

How the data were processed

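RNA-seq of 6 libraries, 3 of WT and 3 of stch4-1 at 4 h, was analysed. FPKM values per gene were deposited by the authors. The submitters' processing notes name TopHat2, Cufflinks and the build TAIR10. Tool versions, strand setting and the treatment of shared reads are not given in the sources. Total counts are unknown. Column names carry the genotype, the time and a number from 0 to 2, where the titles run from 1 to 3, so libraries are called a, b and c in table order. Nothing in the labels says whether the samples of a group were grown separately, and the spread behind each p-value may therefore be technical.

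For genes that reached 1 FPKM in 3 libraries or more, log2(FPKM + 1) was fitted with limma 3.58.1 in R 4.3.3. The tests were 2-sided, with a trended eBayes prior, and were adjusted by Benjamini-Hochberg. The fit was tested on simulated data. Names, exon lengths and sequences came from RefSeq (TAIR10.1), where 32810 table identifiers were found. Of 92 listed genes 85 have a name there, and the others are given by identifier. Members, lists and alternatives were chosen with earlier results of these data known. Genes named are all members, up to 3 called genes of largest change per list, and the 3 genes nearest to the most changed member. Other list genes were named after their values were seen. Joins used Python 3.11.15 and pandas 2.3.3.

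Alternatives were a pseudocount of 0.1, no filter, a mean of at least 5 FPKM, quantile normalization, median of ratios scaling, removal of a lowess trend on exon length, eBayes without trend, and each library left out in turn. A block on the column number was added after seeing the data.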

Additional observations from a re-analysis of the deposited data

How the results depend on the processing

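PIF3, PIF5 and PIF7 were called in the same direction under all 13 alternatives listed above and under the block described below, and PHYB under all but removal of the length trend. With that trend removed 4 of the 10 genes were called higher (PIF1, PIF3, PIF5 and PHYA) and 1 lower (PIF7), against 2 and 2, and PIF4 turned from -0.05 to 0.0087. Values of genes not called ranged over the 13 from 0.15 (without stch4-1 c) to 0.29 for PIF1, from -0.09 (quantile normalization) to 0.0087 for PIF4 and from 0.07 (without WT b) to 0.20 for HFR1. Leaving out 1 library gave 2 higher calls throughout and 2 to 3 lower ones. PIL1, at 0.01, ranged from -0.1057 to 0.149 with 1 library left out and was below 0 without WT a (-0.0121), WT b (-0.0937) or stch4-1 a (-0.1057). Over all genes, leaving out 1 library gave 2605 to 3277 higher and 1819 to 2281 lower calls, and quantile normalization moved the higher share of calls from 56.9% to 45.7%. The median log2 fold change of all genes lay between -0.01 and 0.03 in every setting. In the 9 other lists, 199 of 234 counts of calls under alternatives stayed within 1.5 times the main count, and 35 moved further. Many main counts were 0, and a 0 that stayed at 0 is among the 199. That share therefore says little of the counts above 0. The column names end in 0 to 2 and the sample titles in 1 to 3, and nothing ties them. Same-numbered columns did not deviate together (correlations across genes of 0.05, -0.13 and -0.04), so the numbers are not taken to pair samples. A replicate block on the column number, chosen after seeing the data, gave 3017 higher and 2063 lower genes and changed no call among the 10. Under it the turnover list had 0 higher and 3 lower and the greening list 0 lower. Among growth genes IAA19 lost its call (limma adjusted p = 0.0555) and PKS4 gained one (0.0437), both higher. Among stomatal markers TMM lost its call (limma adjusted p = 0.0714) and EPF1 gained one (0.0272), both higher. The causes of these changes were not tested, except that fewer samples enter when a library is left out. Depth is unknown, which limits what can be said of PIL1.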

Other observations

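The 3 stch4-1 values of PIF3 were closer to each other than those of nearly any other gene. Their coefficient of variation was 0.0147%, where the median over tested genes in stch4-1 was 5.97%, and 1 of 19289 tested genes had a lower one. In WT the coefficient of PIF3 was 3.93%, and 32.0% of tested genes had a lower one. How often so narrow a spread arises by chance was not tested, and it was noticed after the values were seen. PIF5 and PIF4 were the steadiest of the 10 genes in WT, with coefficients of 0.963% and 1.24%, and PIL1 the least steady in both genotypes, with 31.5% in WT and 26.8% in stch4-1.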
